A study of Mus musculus with 33 samples.

Results

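RNA of sorted mature olfactory sensory neurons was set beside RNA of the whole main olfactory epithelium, the tissue from which the neurons were sorted, in mice that were wild type for Dnmt3a (Dnmt3a +/+, WT). The members are all genes listed in both deposited expression tables, joined by Ensembl identifier. There were 13369 such genes out of 15988 listed in either table, which is 91.5% of the epithelium table and 90.7% of the neuron table. A further 1375 genes were listed only in the neuron table and 1244 only in the epithelium table, and they are described separately. All animals were 3 weeks old. The neuron side came from 2 libraries, which the authors deposited as 1 pooled value per gene. The epithelium side came from 2 libraries, 1 from mice exposed to 80 µL of water for 60 min and 1 from mice exposed for the same time to 80 µL of octanal, acetophenone and amyl acetate mixed in equal parts (odor). Both exposures followed 10 min of habituation. The whole series holds 33 samples, 12 of them RNA libraries, and also covers heterozygous (Het) and homozygous null (KO) animals. The labels say that the neurons were isolated by fluorescence-activated cell sorting, and do not name the marker or reporter used for the sort.

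The main olfactory epithelium lines the back of the nasal cavity. Its mature sensory neurons each express 1 odorant receptor gene and detect odors on cilia that reach into the mucus. There the receptor activates the G protein Golf, adenylyl cyclase 3 makes cyclic AMP, and cyclic AMP opens a cation channel whose calcium signal is amplified by a chloride channel. Around the neurons lie sustentacular cells, which carry detoxifying enzymes, the secretory cells of Bowman's glands, and horizontal and globose basal cells that renew the neurons. Beneath them the tissue holds axon bundles wrapped by glia, blood vessels, connective tissue and bone. Whole-tissue RNA mixes all of these.

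Values are the authors' RPKM-scale values, a read density per gene length and library depth whose formula is not given in the sources used here, so they can be compared between genes only on this per-length scale. A difference is log2(neuron value + 0.5) minus log2(mean of both epithelium libraries + 0.5), and a gene is called higher or lower here when it was at least 2-fold apart. No test was possible, because the neuron side is 1 pooled value and the tables were normalized separately, so every difference below is a description of these libraries. Both WT neuron libraries were made with ScriptSeq from 200 ng of RNA and both epithelium libraries with NuGEN Encore Complete from 100 ng, so library kit and tissue cannot be told apart in WT. In the KO animals both sides were made with NuGEN Encore Complete, and the same difference in KO (the KO pair, 1 pooled neuron value against the mean of a water and an odor library) is given beside the WT values, although it differs from WT in genotype as well. The epithelium libraries held 12472278 reads with water and 13495341 with odor, recovered from the values, with a median of 295 and 289 reads per gene. The depth of the neuron libraries is unknown, and the labels do not tie the libraries to individual animals.

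The 4 genes that mark the cells lay on the sides that their known cell types give. Omp, a protein of mature olfactory neurons, stood at 16660 in neurons, 5962 in the water library and 2717 in the odor library. Stoml3, a stomatin-like protein of olfactory cilia, stood at 36561, 9320 and 7942. Neurons were 3.84-fold and 4.24-fold above the epithelium mean for these genes. Cyp2g1, a cytochrome P450 of sustentacular cells, was 132.3 in neurons against 7492 and 9777 in the epithelium, 65.3-fold lower. Krt5, the keratin of horizontal basal cells, was 2.88 in neurons against 72.5 and 88.4, 28-fold lower. For all 4 genes the neuron value lay outside the range of the epithelium libraries. The KO pair gave log2 differences of 0.75 for Omp, 1.38 for Stoml3, -6.81 for Cyp2g1 and -1.34 for Krt5.

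Across the 13316 genes whose mean of the sides was at least 1 (53 fell below), far lower neuron values were more frequent than far higher ones. In neurons 2276 genes (17.1%) were at least 2-fold higher and 3227 (24.2%) at least 2-fold lower, and 7813 (58.7%) lay within 2-fold. At 4-fold the counts were 485 higher and 1756 lower, at 16-fold 18 and 418, and at 64-fold 1 and 69. The median difference of all genes was 0.00, and its quartiles were -0.95 and 0.71. How many of the calls are higher ones depended on the scaling: they made up 41.4% of the calls as deposited, 54.9% after quantile normalization of the sides and 72.3% after centring on a list of housekeeping genes, which moved the median of all genes to 0.20 and 0.73. Of the higher genes, 1796 (78.9%) were 2-fold higher against each epithelium library, and 1260 (55.4%) were 2-fold higher in the KO pair. Of the lower genes the counts were 2711 (84.0%) and 2228 (69%). Genes meeting all of these at once numbered 1087 higher (8.16% of all) and 2055 lower (15.4% of all). The epithelium libraries themselves were at least 2-fold apart for 1349 genes (10.1%), of which 282 were odorant receptors. In bulk RNA, fewer cells of a type and less RNA per cell cannot be told apart, here or in any list below.

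**Figure D1:**
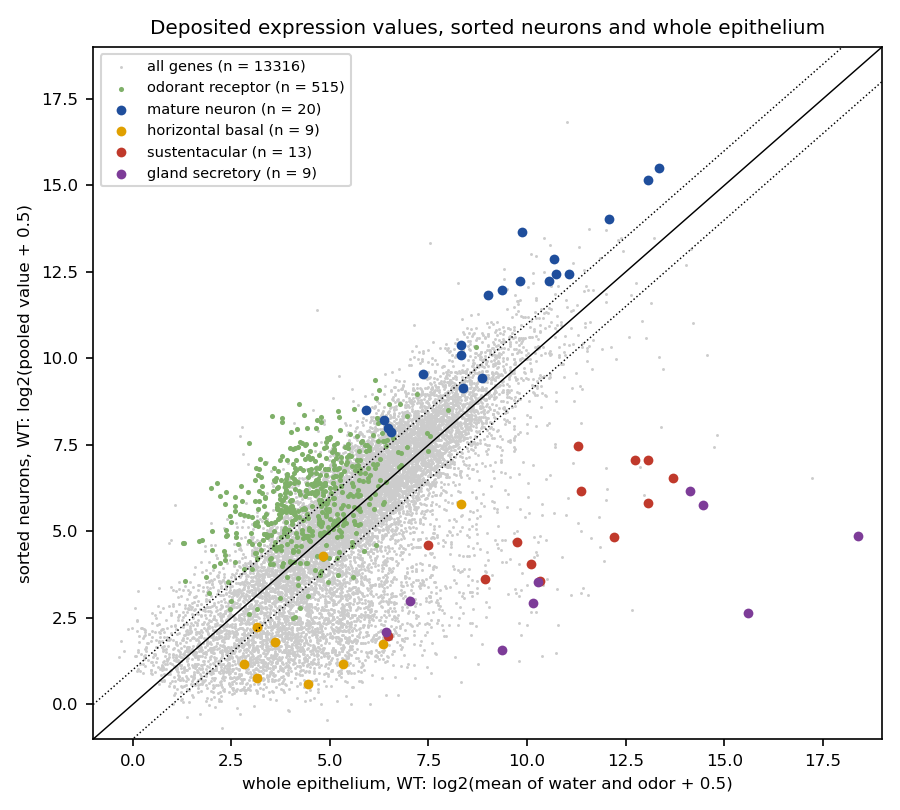
Each point is a gene of the WT comparison, with log2 of the epithelium mean plus 0.5 on the x axis and log2 of the pooled neuron value plus 0.5 on the y axis. The solid line marks equal values and the dotted lines a 2-fold difference, and colors mark 5 gene groups. The 20 mature neuron markers lie above the line and the 13 sustentacular and 9 gland markers far below it.

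The transduction machinery of mature neurons was higher in the sorted cells. Of 20 mature neuron markers, 18 were at least 2-fold higher (17.1% of all genes were), none was lower, and the median difference was 2.0, against 1.27 in the KO pair. In the same order as above (neurons, water library, odor library), Gnal, the alpha subunit of Golf, was at 5527, 2289 and 1978. Gnb1, a beta subunit, was at 4050, 757.0 and 567.9. Gng13, the gamma subunit of olfactory neurons, had the largest difference of the list, with 12831 against 1049 and 820.1, 13.7-fold. In all 3 subunits the neuron value exceeded both libraries, and the fold was 2.59 for Gnal and 6.11 for Gnb1. Adcy3, which makes cyclic AMP, was 744.0 against 165.4 and 164.9. The subunits of the cyclic nucleotide-gated channel were 7435 against 1748 and 1558 (Cnga2), 4827 against 1889 and 1115 (Cnga4) and 1088 against 282.1 and 359.4 (Cngb1). These 3 subunits were 4.50-fold, 3.21-fold and 3.39-fold higher. Ano2, the calcium-gated chloride channel, was 365.2 against 72.8 and 46.5, 6.13-fold higher.

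Genes that terminate the signal or serve the receptors behaved more unevenly. The receptor chaperones Rtp1 and Rtp2 were 5.26-fold and 7.09-fold higher in neurons. Ric8b, which helps Golf to form, was 5505 in neurons, 2307 with water and 1125 with odor, so the libraries of the epithelium differed from each other almost as much as the neurons did from the water library. The phosphodiesterase Pde1c was 3.59-fold higher. Pde4a (568.4 against 305.5 and 359.2) and the adhesion protein Kirrel2 (690.9 against 380.5 and 547.4) were the members below 2-fold. Their difference in the KO pair was 0.06 and 0.09. The most abundant marker in neurons on this per-length scale was S100a5, a calcium-binding protein, at 46290 against 13119 and 7712.

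**Figure D2:**
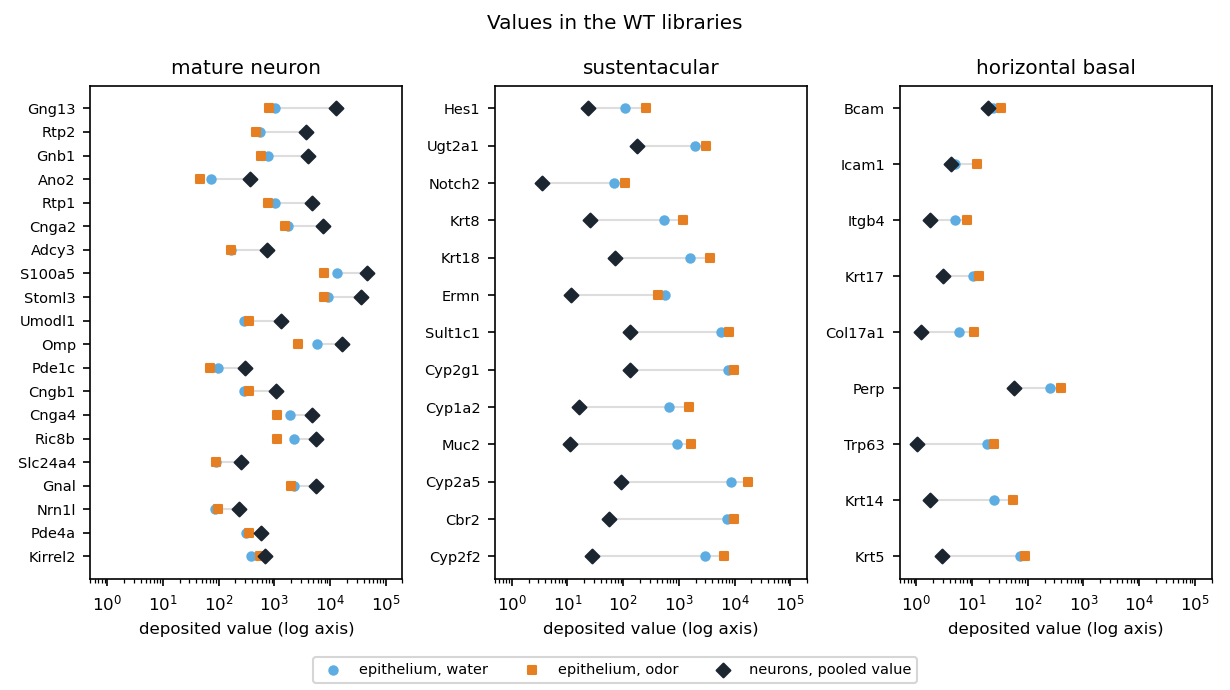
Deposited values on a log axis for the mature neuron, sustentacular and horizontal basal markers in WT, with the pooled neuron value as a black diamond, the water library as a blue circle and the odor library as an orange square. The neuron value of Gng13 (12831) lies far right of both libraries, that of Cyp2g1 (132.3) far left.

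Promoters of these genes are shown because transcription factors of the EBF family, themselves expressed in olfactory neurons, are known to bind near neuron genes at a palindromic motif. The motif was searched as CCCNNGGGA and its reverse complement TCCCNNGGG, which covers both strands, in RefSeq promoters (build GRCm38.p6) from 250 bases before to 50 bases after each start. Of the 20 mature neuron markers, 17 had a promoter in the table, and 6 of 25 promoters of those genes (24.0%) held it. The share was 6.56% of all 32851 promoters and 8.08% of those of genes in both tables. It was 7.21% for genes at least 2-fold higher in neurons and 9.87% for those at least 2-fold lower. Odorant receptors, many of which are in the higher set, had a share of 2.58%. Without receptors the share was 9.40% for genes at least 4-fold higher and 10.5% for those at least 4-fold lower. A match is a description of the letters only. The first 3 sequences below are the mature markers with the largest difference that hold the motif, a choice made after the values were seen, and the other 3 are the named genes with the largest difference that hold it. Each is the stretch of 250 bases before the start, 5′ to 3′, with the motif in capitals.
Gng13, chr17:25716922-25717171, plus strand: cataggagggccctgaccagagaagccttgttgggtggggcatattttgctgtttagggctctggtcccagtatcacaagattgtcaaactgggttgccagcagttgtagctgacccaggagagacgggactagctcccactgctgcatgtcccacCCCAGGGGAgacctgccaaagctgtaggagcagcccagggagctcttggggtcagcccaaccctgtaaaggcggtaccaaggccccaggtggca
Ano2, chr6:125710938-125711187, plus strand: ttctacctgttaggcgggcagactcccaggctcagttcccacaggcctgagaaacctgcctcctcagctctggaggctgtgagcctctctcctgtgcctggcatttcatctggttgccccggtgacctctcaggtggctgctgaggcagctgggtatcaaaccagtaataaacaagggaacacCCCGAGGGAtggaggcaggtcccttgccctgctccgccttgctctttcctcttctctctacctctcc
Cnga2, chrX:71991599-71991848, plus strand: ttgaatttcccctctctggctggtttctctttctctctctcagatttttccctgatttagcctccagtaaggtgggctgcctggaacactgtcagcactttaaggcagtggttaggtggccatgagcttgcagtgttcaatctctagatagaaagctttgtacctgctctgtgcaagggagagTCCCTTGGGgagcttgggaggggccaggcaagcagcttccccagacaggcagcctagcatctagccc
Cartpt, chr13:99900684-99900933, minus strand: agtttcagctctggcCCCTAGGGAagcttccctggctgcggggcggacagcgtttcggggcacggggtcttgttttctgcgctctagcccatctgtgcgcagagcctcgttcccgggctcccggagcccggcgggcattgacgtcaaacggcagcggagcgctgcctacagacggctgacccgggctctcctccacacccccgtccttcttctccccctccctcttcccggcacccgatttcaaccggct
Rasl11a, chr5:146844821-146845070, plus strand: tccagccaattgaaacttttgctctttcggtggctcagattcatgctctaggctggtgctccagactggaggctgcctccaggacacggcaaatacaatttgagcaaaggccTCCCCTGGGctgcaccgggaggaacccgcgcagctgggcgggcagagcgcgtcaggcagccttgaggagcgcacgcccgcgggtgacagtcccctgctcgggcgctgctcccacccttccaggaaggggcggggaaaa
Adnp, chr2:168207113-168207362, minus strand: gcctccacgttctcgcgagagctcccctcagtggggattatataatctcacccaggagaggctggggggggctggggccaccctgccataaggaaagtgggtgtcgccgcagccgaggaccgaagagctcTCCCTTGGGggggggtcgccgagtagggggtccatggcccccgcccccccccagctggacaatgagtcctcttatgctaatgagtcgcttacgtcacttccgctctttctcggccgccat
The motif began 94 bases before the start in Gng13, 67 bases before it in both Ano2 and Cnga2, 235 in Cartpt, 138 in Rasl11a and 120 in Adnp.

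Odorant receptors, the G protein-coupled receptors that define each neuron's odor response, were the largest gene family on the higher side. Of 515 receptor genes in both tables, 343 (66.6%, against 17.1% of all genes) were at least 2-fold higher in neurons. At least 2-fold lower were 10 (1.94%, against 24.2%). The receptors had a median difference of 1.5, and of 0.87 in the KO pair. Their summed value was 46078 in neurons, 20896 in the water library and 10220 in the odor library. The 2 epithelium libraries therefore gave different sizes: the median difference was 1.13 against water, with 283 receptors higher, and 2.13 against odor, with 417 higher. Per receptor the median value was 62.5 in neurons, 27.9 with water and 13.6 with odor. Olfr1507 had the highest neuron value, at 1278 against 511.2 and 328.2. Olfr1428 had the largest difference, with 324.1 in neurons against 16.1 and 6.25 (16 and 6 reads), 29.0-fold. Olfr972 was at 409.1 against 29.2 and 7.29. At the other end Olfr1359 was at 12.4 in neurons, 78.7 with water and 16.9 with odor, and Olfr1109 at 24.1, 138.7 and 3.15, so that its neuron value lay between the libraries. Many of these differences rest on few reads in the epithelium, and reads of near-identical receptors could be assigned to either gene. Of 9 trace amine-associated receptors, which detect amines, 8 were higher (88.9%, against 17.1% of all genes), led by Taar2 (106.5 against 15.8 and 5.79). Taar7e was level at 31.4 against 29.7 and 36.5. The TAATTA homeodomain motif, which reads the same on both strands, was in 16.2% of the promoters of receptor genes. The share was 5.29% of all promoters and 3.11% of those of genes in both tables. Base composition was not compared between these promoters, so the shares describe letters only. None of the 25 promoters of mature neuron markers held it, a set too small to set against these shares.

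**Figure D3:**
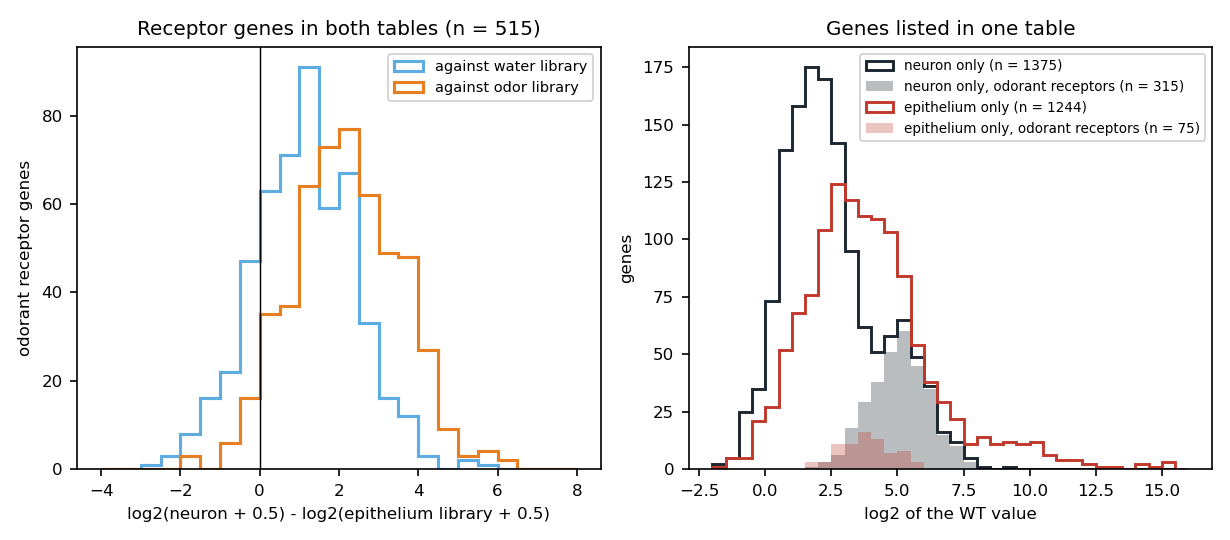
Left, the number of odorant receptor genes (of 515 in both tables) by log2 difference between the neuron value and each epithelium library, with the odor library shifted to larger differences (median 2.13) than the water library (1.13). Right, the number of genes listed in 1 table only by log2 of their WT value, with odorant receptors shaded: 315 of the 1375 neuron-only genes are receptors, and the epithelium-only genes reach higher values.

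Genes for cilia, the site of odor detection, were mostly higher in neurons. Of 24 genes for intraflagellar transport and the BBSome, which move and sort ciliary cargo, 16 were at least 2-fold higher (66.7%, against 17.1% of all genes). None was lower, against 24.2% of all genes, and the median was 1.23 (0.75 in the KO pair). Arl6, the GTPase that recruits the BBSome, was 388.6 against 82.9 and 81.5, and Ttc8, a BBSome subunit, 269.4 against 48.1 and 66.2. Bbs2 was 613.1 against 136.6 and 137.2. The libraries of the epithelium lay close together for these 3 genes and the neuron value was 4.48-fold to 4.73-fold above their mean. Bbs7 (difference 0.50) and Ift88 (0.67) stayed within 2-fold, and Ttc21b had the lowest difference, -0.59.

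Synaptic and axonal genes were split. Of 19 synapse genes 7 were higher (36.8%, against 17.1% of all genes) and 1 lower (5.26%, against 24.2%). Their median was 0.66 (0.25 in the KO pair). Syp, a synaptic vesicle protein, was 824.3 against 98.4 and 114.6, 7.74-fold higher, and Syt1, the calcium sensor of release, 613.4 against 207.2 and 170.5. Slc17a6, the vesicular glutamate transporter of these neurons, was 1540 against 731.7 and 866.0, just below 2-fold. Cplx1 was the lower one, at 8.0 against 82.6 and 6.01, and rested on the water library: its difference was -3.29 against water and 0.39 against odor. Of 26 axon guidance and adhesion genes 10 were higher (38.5%) and 3 lower (11.5%), median 0.67 (0.27 in KO). Sema7a, a membrane-anchored semaphorin, was 1204 against 137.6 and 221.6, and the ephrin Efna3 was 1407 against 327.1 and 248.5. Plxna1, a semaphorin co-receptor, was 3.29-fold higher. The adhesion genes Chl1 (2.44 against 12.9 and 10.6) and Nrcam (8.03 against 34.5 and 17.9) were lower.

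Among 14 regulators of neuron identity and receptor choice, 3 were higher (21.4%, against 17.1% of all genes) and 1 lower (7.14%, against 24.2%), with a median of 0.48 (0.21 in the KO pair). Of the 3, Emx2 alone was also 2-fold higher against each library and in the KO pair. Emx2, a homeodomain factor, was 315.9 against 83.1 and 68.5, 4.17-fold higher, and 2.48 in the KO pair. Lhx2 (657.1 against 364.2 and 282.3) and Ebf3 (785.1 against 385.2 and 378.2) were near 2-fold, with differences of 1.02 and 1.04. Ebf1, Ebf2 and Ebf4 lay between 0.55 and 0.85. Cbx5, a heterochromatin protein, was 82.6 against 181.3 and 164.7, and Lbr and Kdm1a were level, at -0.06 and 0.09. Of 11 DNA methylation genes above the minimum level, 1 was higher (9.09%) and 2 lower (18.2%), both shares below those of all genes. The higher one was Dnmt3a, the de novo methyltransferase deleted in the KO animals, at 174.7 against 84.4 and 89.0 in WT, a difference of 1.01 that is just past 2-fold. Uhrf1, which guides maintenance methylation in dividing cells, was 4.87 against 17.7 and 18, and Tet2, a 5-methylcytosine oxidase, was 66.3 against 161.0 and 167.8.

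The 20 named genes with the largest higher difference outside receptors, ribosomal proteins and histones, each at least 2-fold higher against both libraries and in the KO pair, ranged from 3.35 to 5.83. Cited2, a transcriptional co-regulator, was 10271 in neurons against 171.8 and 202.3, 54.9-fold higher, and 5.04 in the KO pair. Cartpt, the precursor of CART neuropeptides, was 4636 against 298.1 and 310.9. Jakmip1, which binds microtubules, was 726.6 against 40.3 and 33.2. The epithelium libraries differed from each other far less than from the neurons for these 3 genes. Glcci1 (366.8 against 32.3 and 14.0), Ccpg1 (466.7 against 32.6 and 33.9), Rasl11a (281.8 against 21.1 and 12.2), Dusp5, a phosphatase of ERK (299.9 against 18.1 and 39.0), Stbd1, a glycogen-binding protein (293.9 against 33.2 and 23.6), and Uqcrq, a subunit of respiratory complex III (556.7 against 54.9 and 38.6), followed. Gng13 was also among the 20.

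Several of the 20 rested on few epithelium reads: Gng10 on 13 and 20, Mbl2 on 13 and 10, Ddx4 on 11 and 6, Slc35f4 on 24 and 9, and AC158997.1 (Dyx1c1) on 6 and 6. Rasl11a, given above, rested on 25 and 14. Mbl2 encodes a lectin of innate immunity and stood at 127.0 against 11.2 and 8.94, and the germ-cell helicase Ddx4 at 26.4 against 1.86 and 1.05. Lars2, a mitochondrial leucyl-tRNA synthetase, had the largest difference, at 116692 against 1705 and 2402, 56.8-fold, and 5.54 in the KO pair. Its locus carries a stretch related to ribosomal RNA, and reads from ribosomal RNA could be counted there. Adnp (215.1 against 6.67 and 5.45) and Galnt2 (151.4 against 5.75 and 7.17) were also among them. For these genes the way reads of copies or overlapping models were assigned in each table was not tested.

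Markers of immature neurons lay on both sides, in shares close to those of all genes. Of 16 markers, 4 were higher (25%, against 17.1% of all genes) and 4 lower (25%, against 24.2%), with a median of 0.32 (0.42 in the KO pair). That median was 0.03 against the water library and 0.61 against the odor library. Gap43, a growth cone protein, was 837.2 against 506.8 and 301.7, 2.07-fold higher, and Stmn4, a microtubule regulator, 579.5 against 105.5 and 94.3. Ddit3 and Atf5, transcription factors of the unfolded protein response, were 3.91-fold and 2.95-fold higher. Cxcr4, a chemokine receptor of early neuronal cells, was 9.28 against 74.8 and 86.2, 8.67-fold lower. Stmn1, Dpysl3 and Marcksl1 were 2.15-fold to 2.35-fold lower, and Gng8 (170.8 against 208.8 and 150.9) lay between the libraries.

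Progenitor genes were lower almost throughout. Of 11 markers listed on both sides, 10 were at least 2-fold lower (24.2% of all genes were), median -2.76 (-1.95 in the KO pair). The proliferation marker Mki67 was 17.9 against 890.1 and 631.8, and the cyclin Ccnd1 8.83 against 383.7 and 469.3, 42.6-fold and 48.3-fold lower. Neurod1, a proneural factor, was 7.36 against 58.8 and 46.5. Insm1, a factor of late progenitors, was 279.7 against 473.5 and 362.2, within 2-fold. Neurog1, a proneural factor of the globose basal progenitors, was listed only in the epithelium table, at 14.3 with water and 29.7 with odor.

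Of 9 horizontal basal markers 7 were lower (77.8%, against 24.2% of all genes), with a median of -2.37. Krt14, the partner of Krt5, was 1.75 against 24.3 and 55.2, and Trp63, the factor that maintains these stem cells, 1.02 against 18.2 and 24.4. In the KO pair the median was -0.36, and Krt14 was 22.6 in KO neurons. Perp was the most abundant marker on this scale in neurons, at 55.5 against 248.6 and 396.2. Bcam (19.2 against 23.4 and 32.5) was within 2-fold.

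Sustentacular genes were lower in all 13 cases (24.2% of all genes were lower), and these were among the largest differences of the comparison. The median was -5.69 (-4.53 in the KO pair), the summed value 780.3 in neurons against 38655 with water and 63460 with odor, and single genes stood at 0.590% to 13.3% of the epithelium mean. Cyp2f2, a xenobiotic-metabolizing cytochrome P450, was 28.0 against 2915 and 6564, 169-fold lower. Cyp2a5, of the same family, was 92.6 against 8733 and 17676, and Cbr2, a carbonyl reductase, 56.2 against 7338 and 9681. Ermn was 11.8 against 554.5 and 424.1. Ugt2a1, the olfactory glucuronosyltransferase, kept the highest value in neurons, 175.3 against 1984 and 3011, and Hes1, a Notch target, the smallest difference, at 23.8 against 107.0 and 252.0. In each of the 13 genes but Ermn the odor library was above the water library.

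Secretory genes of the glands gave the largest differences. All 9 in both tables were lower (24.2% of all genes were), median -7.81 (-7.31 in KO). Lcn13 (Obp2a), an odorant-binding lipocalin, was 28.9 in neurons against 43847 with water and 645253 with odor, a difference of -13.52. The epithelium libraries differed strongly from each other for this gene, and it was lower in neurons against either one, at -10.54 and -14.42. The next gene, 4833413D08Rik, was 5.78 against 40865 and 58518. Lcn11 was 53.9 against 7905 and 37289, Plunc (Bpifa1), an airway secretory protein, 71.6 against 11809 and 24129, and Muc5b, a mucin, 2.45 against 368.6 and 953.9. Aqp5, the water channel of gland cells, was 7.45 against 77.5 and 182.6. Obp1a, Obp1b, Lcn14 and Reg3g of this list were listed only in the epithelium table.

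The 20 named genes with the largest lower difference ranged from -7.58 to -13.52. They included secreted, detoxifying and connective tissue proteins, and at -7.58 Rpl21-ps6, a copy of a ribosomal protein gene. After Lcn13 they included Cyp2a4 (6.12 against 4181 and 8883), Dmbt1, a mucosal glycoprotein (2.29 against 280.4 and 3103), Odam (2.14 against 1775 and 867.2), Serpina3n (1.88 against 427.9 and 1346), Lcn4 (9.85 against 97.0 and 5388), Vmo1 (17.2 against 2893 and 4971) and Bpil3 (8.55 against 1533 and 2901). The collagen chaperone Serpinh1 (4.45 against 2000 and 1538) and the matrix proteins Spp1 (2.59 against 680.8 and 562.8) and Bgn (1.74 against 415.3 and 449.7) stood among them, as did Rgr, an opsin-like protein (4.40 against 841.9 and 1214). The libraries of the epithelium lay far apart for Lcn4 and Dmbt1, and both genes were lower in neurons against each, at -3.24 and -9.02 for Lcn4 and -6.65 and -10.12 for Dmbt1.

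The microvillous cells, a rarer epithelial type, were mixed. Of 7 markers listed on both sides, 4 were lower (57.1%, against 24.2% of all genes) and 1 higher (14.3%, against 17.1%). Their median was -1.22 (-0.79 in KO). Itpr3 was 11.5 against 47.9 and 74.9 and the chloride channel Cftr 3.11 against 15.5 and 18. Pou2f3, the factor of tuft-type cells, was 9.45 against 1.41 and 5.12, and the channel Trpm5 3.24 against 1.18 and 1.66, so all 3 values were low. Ascl3 and Chat of this list were listed only in the epithelium table. Ascl3 was 60.6 with water and 230.1 with odor, and Chat 3.19 and 0.778. Of 7 respiratory ciliated markers listed on both sides 1 was higher and 1 lower (14.3% each). Both shares lay below those of all genes. Their median was 0.38 in WT and -0.49 in the KO pair. Foxj1, a factor of motile and olfactory cilia, was 530.8 against 366.8 and 421.5, while Dnahc5, an axonemal dynein, was 23.0 against 152.6 and 382.7.

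Genes of stroma, blood and macrophages were far lower in neurons, and those of other cells below the epithelium were less uniform. All 9 stroma genes were lower (24.2% of all genes were), median -6.65 (-4.79 in KO). Col1a1 was at 8.52 against 2223 and 3778 and Sparc at 8.91 against 2753 and 2573. The hemoglobin and other red cell genes were all lower, 7 of 7, median -4.48 (-5.33 in KO). Hbb-b2 was 222.4 against 32193 and 25780, and Hbb-b1 still stood at 1086 against 27975 and 20539. Their summed neuron value, 2446, was 3.22% of the epithelium's. Macrophage genes were lower in 10 of 10, median -3.25 (-2.27 in KO), led by Lyz2 at 41.8 against 844.3 and 1114. Ensheathing glia genes were lower in 9 of 10, median -3.23 (-2.72 in KO), with Sox10, a glial factor, at 6.06 against 69 and 63.0. The size of the glial median rested in part on the water library: against the odor library alone it was -2.26, and Gfap, a glial filament protein, was 3.05 against 98.2 with water and 2.99 with odor. Bone and cartilage genes were lower in 5 of 6 (83.3%, against 24.2% of all genes), median -3.30 (-1.73 in KO). Endothelial genes were lower in 5 of 8 (62.5%, against 24.2% of all genes), median -1.57 (-0.20 in KO). Among them the pericyte gene Rgs5 was 41.9 against 4244 and 3063. Pecam1, an endothelial adhesion protein, was only 6.01 against 9.33 and 8.76. Both marrow granulocyte genes in both tables were lower, and S100a8 and S100a9, at 899.8 and 566.2 with water, were listed only in the epithelium table. No marker listed in a table was at 0 there. A marker that a table does not list has no value in it, so remaining RNA of these cells cannot be read from this.

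Muscle and lymphocyte lists had 3 members each in both tables, and their medians had opposite signs in WT and KO. Acta1, skeletal actin, was 25.6 against 11.2 and 4.09, and the muscle median was 1.47 in WT and -0.92 in the KO pair. The KO sign came from the KO odor library, where Acta1 was 147.5 and Ckm, muscle creatine kinase, 127.7, against 42.0 and 32.4 in KO neurons. In the KO water library Acta1 was 12.3, Ckm 31.5 and Actn3, a muscle actinin, 10.2, and the KO neuron value of each (24.8 for Actn3) was above it, by little for Ckm. Cd79a, a B cell receptor chain, was 15.0 against 52.9 and 39.9, and the lymphocyte median was -1.56 in WT and 0.54 in KO.

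**Figure D4:**
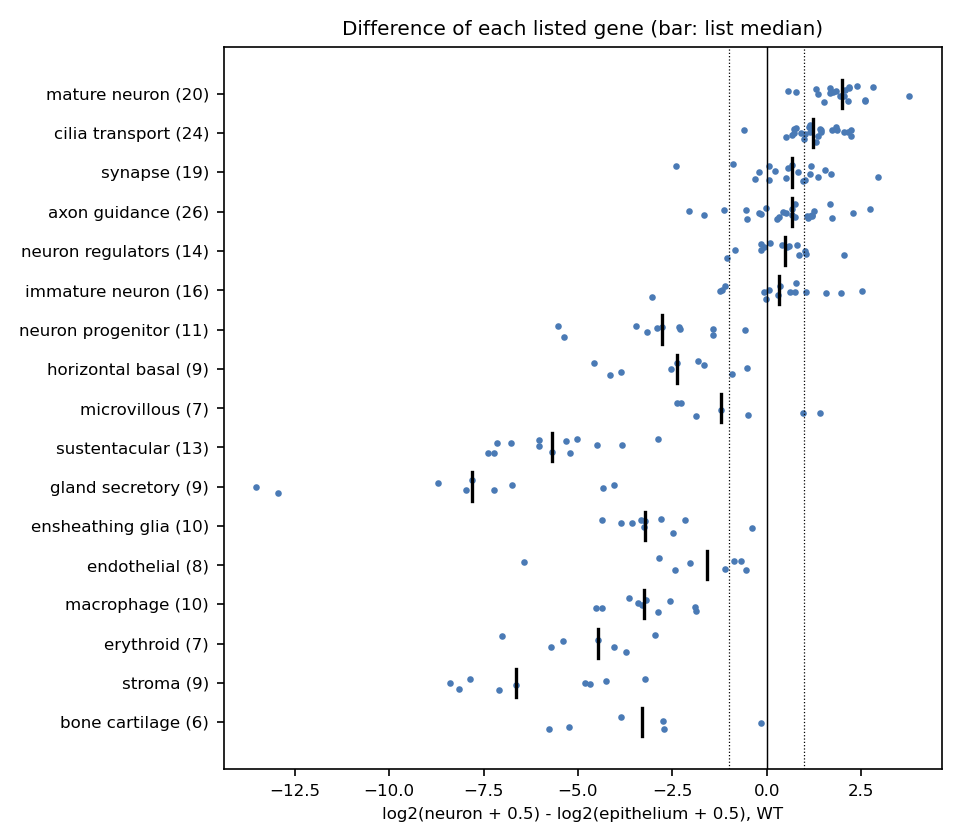
Each point is 1 gene, placed by its WT log2 difference between neurons and epithelium, in 17 lists whose number of genes is in brackets. The bar is the list median and the dotted lines mark 2-fold. Medians run from 2.0 for mature neuron markers to -7.81 for gland genes.

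Genes listed in 1 table have no fold, because whether a gene was left out for lack of reads is not stated. Of the 1375 genes only in the neuron table, 315 (22.9%) were odorant receptors, with values from 3.45 to 259.8 and a median of 34.5. The median of all 1375 was 4.70, and 26 reached 100. Of the 1244 only in the epithelium table, 75 (6.03%) were receptors, the median was 12.2, and 138 reached 100. The neuron table thus listed 830 receptors among 14744 genes and the epithelium one listed 590 among 14613. For comparison, 515 of the 13369 genes in both tables were receptors. Outside receptors, the highest neuron-only values belonged to Mcart1 (595.1), Lsm3, an RNA splicing factor (218.1), Zdhhc22, a palmitoyltransferase (192.6), Tmsb15b1 (150.6), and Pou4f1, a POU homeodomain factor of sensory neurons (129.4), followed by Mef2b (94.0), Fam19a4 (78.3), Npff, a neuropeptide precursor (63.6), H2-Ke6 (59.7) and Pomc, a peptide hormone precursor (53.8). In KO neurons Zdhhc22 was 350.2, Pou4f1 116.7 and Mcart1 206.8.

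The highest epithelium-only values belonged to secreted odorant and pheromone carriers. Obp1b was 16075 with water and 67922 with odor, Obp1a 15449 and 54300, Lcn14 (Obp2b) 3304 and 44977, the major urinary proteins Mup4 3628 and 39110 and Mup5 33105 and 7741, and Lcn3 820.1 and 11722. For all of these but Mup5 the odor library was the higher one, and the Mup and Obp1 genes have near-identical copies, so their single values are uncertain. Gpx6, a glutathione peroxidase, was 1885 and 4197, and the secreted androgen-binding protein Abpa 295.5 and 5535. Rpl17-ps3 and Rpl21-ps7, copies of ribosomal protein genes, were also among the 10. No sustentacular, mature neuron, intraflagellar transport, BBSome or synapse marker was missing from either table. Sntn, a respiratory ciliated marker, was listed only in the epithelium table, at 239.2 with water and 406.5 with odor. So were 5 of 15 macrophage genes and 5 of 11 bone and cartilage genes, against 1244 of all 14613 genes of that table.

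Genes that respond to activity could not be placed on a side. The 27 immediate early genes had a median of 1.08 against the water library and -0.62 against the odor library. Fos was 640.6 in neurons, 20.7 with water and 523.1 with odor. Nr4a1 was 388.8, 66.9 and 1498, and Egr1, another activity-induced factor, was 226.4, 44.8 and 638.9. The neuron values of Nr4a1 and Egr1 thus lay between the libraries, and that of Fos above both. Klf2 (79.5 against 11.3 and 11.2) and Jund (549.9 against 130.9 and 188.2) were higher against each library, and Fosl2 (6.93 against 96.1 and 141.6) lower against each. Among heat shock genes the chaperones Hspa1a and Hspa1b were near the water library (74.1 and 37.3 against 69.5 and 45.2) and far below the odor library (8255 and 4931). Hspa5, the chaperone of the endoplasmic reticulum, was 772.9 against 172.2 and 235.6.

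Energy metabolism and the translation machinery lay on opposite sides as deposited. Of 76 genes named as subunits of oxidative phosphorylation 29 were higher (38.2%, against 17.1% of all genes) and 4 lower (5.26%, against 24.2%). Their median was 0.84 (0.48 in KO). Uqcrfs1, the Rieske protein of complex III, was 1170 against 151.4 and 152.4, and Ndufs1, the largest complex I subunit, 388.0 against 74.5 and 67.2. Cox8b, an isoform of heart and muscle, was 23.5 against 210.1 and 516.7. Of 80 ribosomal protein genes 30 were lower (37.5%, against 24.2% of all genes) and 2 higher (2.50%, against 17.1%). Their median was -0.66 (-0.91 in KO), and it turned to 0.07 after centring on housekeeping genes. Rpl19 was 1051 against 10617 and 10262, while Rps29 was 332.6 against 84.9 and 86.8 and Rpl8 was level. Of 17 processed copies of ribosomal protein genes (named -ps) 16 were lower (24.2% of all genes were), median -5.34 (-4.52 in KO). Reads of near-identical copies can be assigned to either copy.

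Most histone genes are transcribed in dividing cells, and many are near-identical copies with uncertain single values. Of 50 histone genes 27 were lower (54.0%, against 24.2% of all genes) and 4 higher (17.1% of all genes were). Their median was -1.55 (-1.29 in KO). Hist1h3b was 5.93 against 1001 and 1194. Hist2h2be, a polyadenylated H2B gene known to be expressed in olfactory neurons, was 7915 against 1440 and 936.0, 6.66-fold higher, and H2afy, which encodes macroH2A, 394.0 against 69.3 and 71.6. Hist1h4d was 1138 against 133.1 and 192.9. Housekeeping genes did not hold level: 3 of 14 were higher (21.4%, against 17.1% of all genes) and 6 lower (42.9%, against 24.2%). Their median was -0.73. Hprt was 1181 against 149.0 and 122.2 and Gusb, a lysosomal enzyme, 2.90 against 48.6 and 61.3. Gapdh was 1091 against 879.8 and 1120. Outside these lists, Ttc30a2 was 6.49 against 529.7 and 511.4, and its near-identical copy Ttc30a1 was also lower, at 46.5 against 393.7 and 392.8. A further copy, Ttc30b, was level, so the single values of these copies are uncertain.

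**Figure D5:**
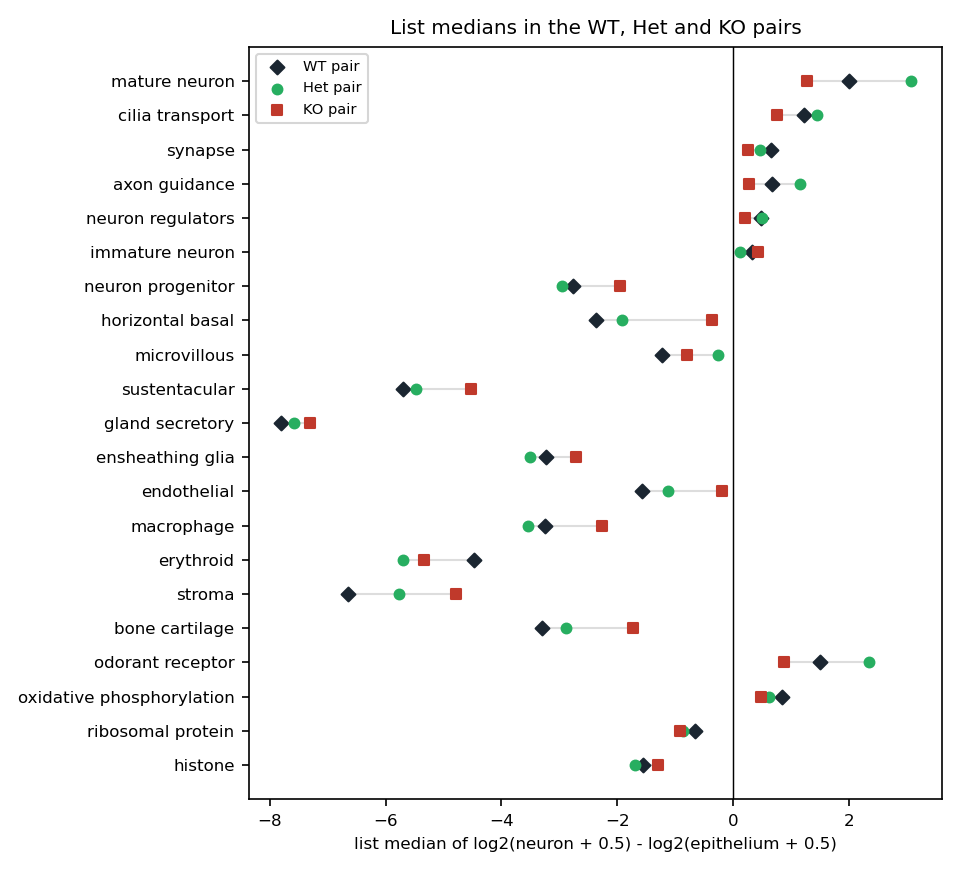
List medians of the log2 difference between neurons and epithelium in the WT pair (black diamond), the Het pair (green circle) and the KO pair (red square). Mature neuron markers have medians of 2.0, 3.06 and 1.27, and sustentacular markers -5.69, -5.48 and -4.53.

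The Het pair, with 1 neuron library of each kit, gave a median of 3.06 for mature neuron markers and 2.35 for odorant receptors, above WT for both, and -5.48 for sustentacular markers. Across the 13316 genes the WT difference and the KO pair difference had a Pearson correlation of 0.83 and WT and Het 0.92, given as descriptions, since genes are not replicates. Of the 2276 genes higher in WT, 13 were at least 2-fold lower in the KO pair, and of the 3227 lower genes 62 were at least 2-fold higher there. Differences between genotypes in these pairs were not tested.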

How the data were processed

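RNA was measured by sequencing of ribosome-depleted RNA. Both tables hold values that the authors deposited as RPKM; the submitters' processing notes name STAR 2.3.0, Bowtie2 2.1, featureCounts, Picard 1.64 and DESeq and the builds NCBIM37 and mm9, while their order, the RPKM formula and the way the 2 neuron libraries were combined are not given in the sources used here. In the epithelium table whole read numbers could be recovered from the ratios between columns for 14613 of 14613 genes (relative tolerance 1e-10, exact up to a divisor a gene's counts share). Neuron rows without values (7) were left out. Genes were joined by Ensembl identifier, with a pseudocount of 0.5 and a minimum mean of 1, in Python 3.11.15 with pandas 2.3.3; the calculation was tested on simulated data. For naming, genes needed a mean of at least 5 and a 2-fold difference against each library and in the KO pair. The 20 with the largest difference in each direction were named. Receptors, ribosomal proteins, histones and unnamed models were left out, but copies of ribosomal protein genes named -ps were not. The same name rule was used for the 10 highest genes of each table alone. The comparison and its gene lists were chosen with earlier results of these data known, and the histone name pattern was narrowed after the files were read. Folds are ratios of the deposited values without the pseudocount. Alternatives covered the fold, pseudocount, filter, scaling, each epithelium library and the other genotypes. The values of some genes that meet the naming rule are not reported here.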

Additional observations from a re-analysis of the deposited data

Results flagged for a closer look

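For 2 gene lists the WT pair moved one way against both of its epithelium libraries and the KO pair the opposite way against both of its own; the difference was not tested. The 3 lymphocyte genes had a WT median of -1.56, at -1.70 against water and -1.38 against odor, while the KO pair gave 0.25 and 0.80. The DNA methylation genes had a WT median of -0.04 against the mean, at 0.09 and 0.08 against the single libraries, and -0.06 and -0.34 in the KO pair, sizes close to 0. Dnmt3a itself, the gene deleted in KO, is in that list.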

How the results depend on the processing

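Limits: 1 pooled neuron value, an unknown neuron depth, 1 epithelium library per exposure, separately normalized tables and a kit that differs between the WT sides. The 2276 higher genes became 3865 at 1.5-fold, 485 at 4-fold and 5382 after centring on housekeeping genes, and the 3227 lower genes became 1756 at 4-fold and 2066 after that centring; without 1 epithelium library they ranged from 2300 to 2535 and from 3167 to 3211. The median of mature neuron markers was 2.73 after housekeeping centring, 1.27 in the KO pair and 3.06 in the Het pair (1.88 to 2.19 without 1 library). That of sustentacular markers was -4.95 after the centring and -4.53 in the KO pair (-5.91 to -5.43). That of horizontal basal markers was -1.10 with a pseudocount of 5, -3.85 at a mean of at least 10, -1.54 with quantile normalization, -1.64 after the centring and -0.36 in the KO pair (-2.73 to -1.90). Of the neuron-only genes 664 were at 5 or more. The KO pair turned the lymphocyte median to 0.54 and the muscle median to -0.92. The muscle reversal came from the KO odor library (Acta1 147.5 and Ckm 127.7, against 12.3 and 31.5 with water); its cause and that of the lymphocyte list were not tested. The ensheathing glia median was -2.26 without the water library. Of 338 alternative values of the medians of lists with at least 3 genes, other than the mature neuron, sustentacular and horizontal basal markers, 318 kept their sign. Those that did not were the lists of immediate early, heat shock, DNA methylation, housekeeping, ribosomal protein, respiratory ciliated, lymphocyte and muscle genes. The housekeeping list is among them only because centring on that list sets its own median to 0.00. No paired analysis was possible because each side of a genotype is 1 pooled neuron column or libraries of different exposures, and no test was made.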
